A study of Mus musculus with 6 samples.

Results

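The germline genes described here are 34 genes of meiosis, the piRNA pathway and germ cell identity that somatic tissues normally keep silent. They were chosen by gene symbol from the 53801 genes counted in mouse embryo brain, and each symbol matched 1 gene. Polyadenylated RNA was sequenced from the whole brain of C57BL/6 embryos at stage E16.5, with 3 Bahd1-KO (Bahd1-/-) and 3 Bahd1-WT embryos. Both genotypes came from crosses of Bahd1+/- mice. BAHD1 is a protein that helps to assemble repressive chromatin, so the comparison asked whether germline genes were derepressed in its absence or stayed silent.

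Germ cells divide by meiosis, in which homologous chromosomes are held together by the synaptonemal complex and a meiotic form of cohesin while programmed DNA breaks are repaired. They also make piRNAs, small RNAs that guide PIWI proteins against transposons in granules next to the nucleus. In somatic cells many of the genes for these proteins are kept off by DNA methylation of CpG-rich promoters, by H3K9 methylation and by the Polycomb complex PRC1.6, whose MGA and MAX subunits bind E-box sequences and whose E2F6 subunit binds E2F-type sequences.

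Values are given in the order of replicates 1, 2 and 3, first for the Bahd1-KO and then for the Bahd1-WT embryos. Libraries held between 61724000 and 91782802 counts. Protein-coding genes took 53.5% of them in Bahd1-KO replicate 3 and 97.8% to 98.4% in the other libraries. Bahd1 itself had 2, 10 and 6 against 1971, 3102 and 3470 counts (log2 fold change -8.40, SE 0.606, adjusted p 0.0462, edgeR). This call was lost when any 1 embryo other than Bahd1-KO replicate 3 was left out, with log2 fold changes of -8.78 to -8.01. Bahd1-KO replicate 3 went against its brain label. Its summed neuron markers (8 genes, all detected) reached 24.5% of the mean of the other 5 libraries. Dcx, a protein of migrating neurons, had 1778 counts there against at least 188324 elsewhere. The 8 neuron markers did not all go the same way. In the comparison of genotypes with all embryos, 2 had a log2 fold change above 0 and 6 below. The lung epithelium markers of Bahd1-KO replicate 3 (7 genes, all detected) reached 645-fold the mean of the other 5 libraries. Sftpc, a surfactant protein, had 44670 counts there against 0 to 225. Its skeletal muscle markers reached 11.2-fold that mean, its dividing progenitor markers 1.82-fold and its choroid plexus markers 30.4%. Bahd1-KO replicate 2 held 5.62 CPM (counts per 1e6 counts of the library, after scaling by trimmed mean of M-values, TMM) of placenta trophoblast markers, against 0.153 to 0.208 in the other libraries, with 2 of the 7 markers, Prl3d1 and Prl2c2, at 1 and 0 counts there. It also held 11.6 CPM of lung epithelium markers, with 511 counts of Scgb1a1 and 225 of Sftpc, against 0.290 to 0.525 CPM in Bahd1-KO replicate 1 and the Bahd1-WT embryos. Results are therefore given with and without Bahd1-KO replicate 3.

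**Figure D1:**
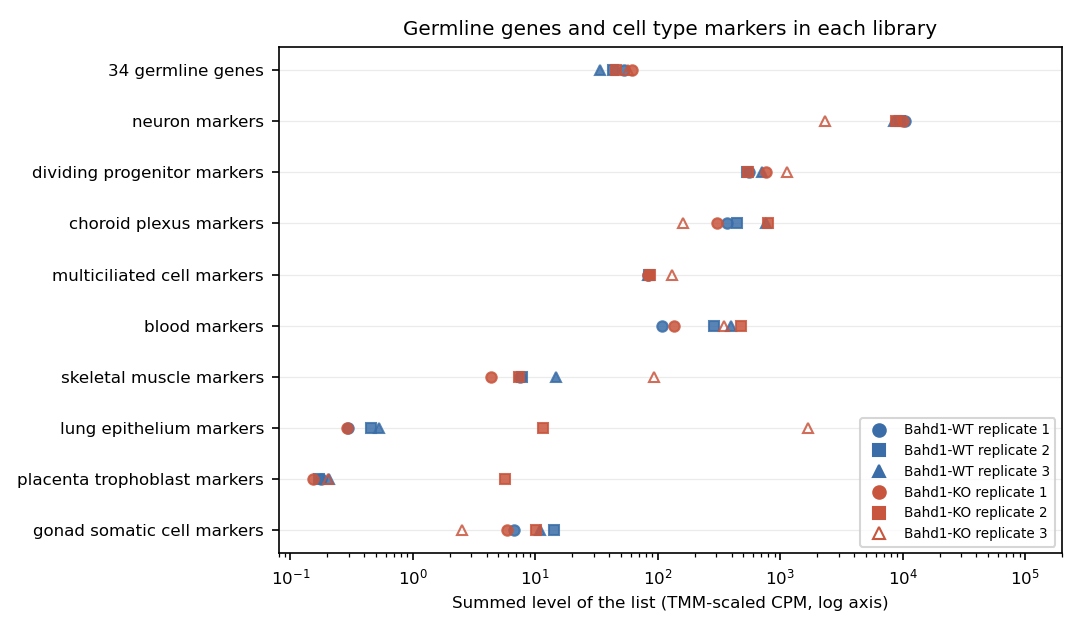
Summed level of the 34 germline genes and of 9 lists of cell type markers (horizontal log axis, TMM-scaled CPM), with 1 point per library, blue for Bahd1-WT and red for Bahd1-KO. The open triangle, Bahd1-KO replicate 3, lies apart from the other 5 libraries for neuron, lung and skeletal muscle markers, while the germline genes span 33.8 to 62.1 CPM over the 6 libraries. That library also lies above the range of the other 5 for dividing progenitor and multiciliated cell markers, and below it for choroid plexus and gonad markers.

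None of the 34 genes was called between genotypes. Of the 29 with at least 10 counts over the embryos, 19 had a log2 fold change above 0 and 10 below, and adjusted p-values ran from 0.696 to 0.974 (edgeR quasi-likelihood test). Of the 29, 4 had fewer than 10 counts over the Bahd1-WT embryos, Asz1, Taf7l, Mov10l1 and Hormad2, and reached the minimum only with the Bahd1-KO counts added. All 4 had a log2 fold change above 0. With the stricter filter filterByExpr, 11 of 21 lay above 0, and with scaling by total counts 17 of 29. Over all 24739 genes tested, 0.00404% were called, which was Bahd1 alone. At an unadjusted p under 0.05, 4 of the 29 germline genes were higher in Bahd1-KO, Meioc, Taf7l, Dmc1 and Asz1, against 4.51% of all genes. In the lower direction this p was reached by 0 germline genes and by 0.166% of all genes. DESeq2 likewise called 0 of the 34 genes (0.0371% of all genes) and gave 4 genes an unadjusted p under 0.05 in the higher direction, Meioc, Taf7l, Dmc1 and Smc1b, against 5.12% of all genes. It gave 0 of them such a p in the lower direction, against 0.154%, and no p for Asz1 and Sycp1.

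The median log2 fold change of the 29 genes was 0.42, against 0.06 over all genes tested, where 53.8% lay above 0. Asz1 had no count in Bahd1-WT. Its bound against 3 counts per library was 5.70, still above the median, so setting Asz1 there could not move the median from 0.42. Without Bahd1-KO replicate 3, 27 germline genes were tested. Of these, 20 lay above 0 and 7 below, against 49.2% of all genes above 0, and the median was 0.34 against -0.01. Again 0 of them were called, against 0.0171% of all genes, with adjusted p-values of 0.981 to 0.995. At an unadjusted p under 0.05, Taf7l and Meioc were higher, against 1.09% of all genes, and Syce1 was lower, against 0.386%.

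The summed level of the 34 genes was 62.1, 45.3 and 57.6 CPM across Bahd1-KO, against 52.5, 43.3 and 33.8 CPM across Bahd1-WT. The means were 55.0 ± 8.70 and 43.2 ± 9.38 CPM (SD, n = 3 each), and the ranges overlapped. Over total counts the difference between the means was 5.46 CPM instead of 11.8, and Bahd1-KO replicate 3 moved from 57.6 to 39.4 CPM, below Bahd1-WT replicates 1 and 2 at 54.8 and 46.8. The total of Bahd1-KO replicate 3 was 53.5% protein-coding, against 97.8% to 98.4% in the other libraries. Over protein-coding counts the difference between the means was 16.9 CPM. Without Bahd1-KO replicate 3 the Bahd1-KO mean was 53.7 CPM. The highest level of a gene lay in Bahd1-KO replicate 1 for 12 of the 29 genes tested (41.4%, against 17.9% over all genes), in replicate 2 for 4 (against 6.26%) and in replicate 3 for 9 (against 38.1%). Bahd1-WT replicates 1, 2 and 3 held it for 2, 1 and 1 genes (against 7.82%, 12.6% and 17.4%). The lowest level lay in Bahd1-KO replicates 1, 2 and 3 for 4, 1 and 10 genes (against 18.8%, 8.1% and 36.4%), and in the Bahd1-WT embryos for 1, 3 and 10 (against 7.42%, 13.3% and 16.0%). A tie at 0 counts was assigned to the first tied embryo in this order, also in the shares over all genes. Asz1, Sycp1 and Mov10l1 were such ties, assigned to Bahd1-KO replicate 1. Bahd1-KO replicate 3 thus held extremes of both kinds, at shares (31.0% highest, 34.5% lowest) under those over all genes. Bahd1-KO replicate 1 and Bahd1-WT replicate 3 stood at opposite ends.

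**Figure D2:**
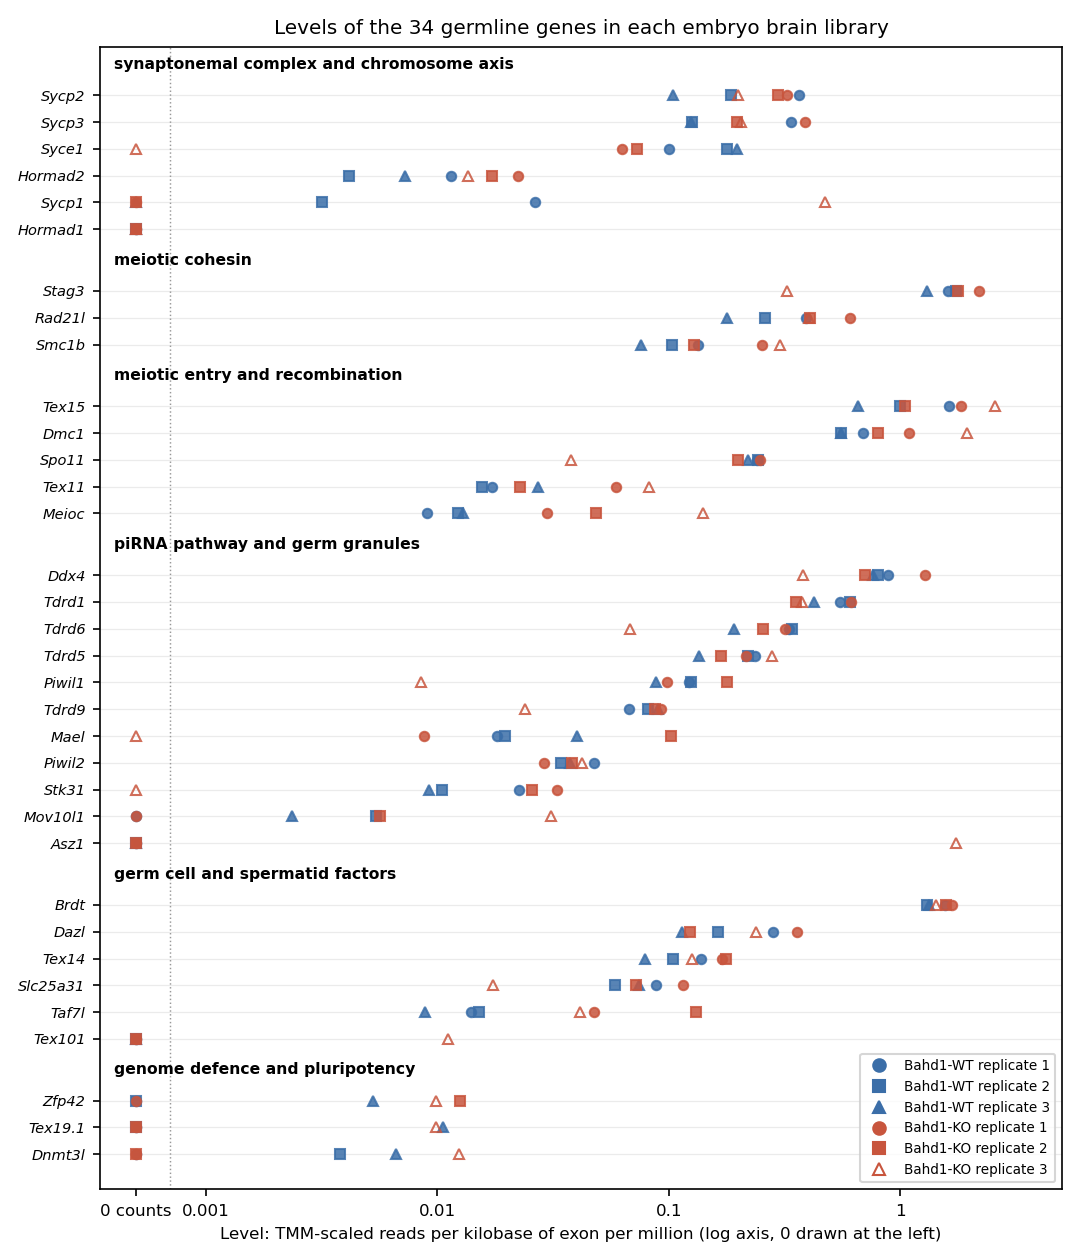
Level of each of the 34 genes in each library, as TMM-scaled reads per kilobase of exon per 1e6 reads (horizontal log axis, with values of 0 drawn at the far left), grouped by role. Levels span from 0 counts in all 6 libraries for Hormad1 to means of 1.49 for Stag3 and 1.48 for Brdt over the 6 libraries, and the open triangles of Bahd1-KO replicate 3 often lie apart, as for Asz1, Sycp1 and Stag3.

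Silence was partial across the list. Of the 34 genes, 6 stayed under 0.1 CPM in every embryo (17.6%), namely Hormad1, Hormad2, Tex101, Zfp42, Tex19.1 and Dnmt3l, against 24.9% of all protein-coding genes. Over the 5 embryos other than Bahd1-KO replicate 3, Sycp1, Mov10l1 and Asz1 joined them, making 9 (26.5%, against 27.7%). Hormad1, which marks unsynapsed chromosome axes, had 0 counts in all 6 libraries, as did 15.1% of protein-coding genes. A count of 0 allowed a level of up to 0.0297 to 0.0556 CPM, depending on the library, for counting error only. Tex101, a surface protein of germ cells, had 1 count, in Bahd1-KO replicate 3. Tex19.1, a protein of pluripotent and germ cells that restrains transposons, had 1 count there and 2 in Bahd1-WT replicate 3. Zfp42, the pluripotency factor REX1, had 0, 2 and 1 against 0, 0 and 1 counts. Dnmt3l, the cofactor of de novo DNA methylation in germ cells, had 0, 0 and 2 against 0, 1 and 2 counts. These 3 genes of genome defence and pluripotency, like Hormad1 and Tex101, fell under the count minimum over all 6 embryos and were not tested. They stayed under 0.1 CPM in each embryo of both genotypes, and differences among such low levels could not be resolved at this depth.

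At the other end, some germline genes were read in every brain. Per length, in reads per kilobase of exon per 1e6 reads over the 5 embryos other than Bahd1-KO replicate 3, the highest mean levels were 1.73 ± 0.322 for Stag3, 1.49 ± 0.164 for Brdt, 1.23 ± 0.486 for Tex15, 0.886 ± 0.228 for Ddx4, 0.738 ± 0.223 for Dmc1 and 0.510 ± 0.115 for Tdrd1 (SD). The spans of mean ± SD overlapped between neighbours in this order. For scale, Bahd1 itself had a mean level of 6.44 in the Bahd1-WT embryos. In bulk tissue, a few cells with much of a transcript and many cells with little of it cannot be told apart.

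A sequence feature joined many of the 34 genes. In RefSeq promoter windows of GRCm38.p6, from 250 bases before to 50 after the start, 29 of the 34 genes were found. The E-box CACGTG, which reads the same on both strands, occurred in 15 of these 29 genes (51.7%), against 8.09% of the 27025 genes with a window. The E2F-type motif TCCCGC, on either strand, occurred in 13 (44.8%, against 22.0%), and both motifs in 7 (24.1%, against 2.65%). The motifs can share at most 1 letter at their ends. The windows were also richer in CpG, with a median of 20 CpG against 7 and a GC content of 61.3% against 52.7%, and a match is a description of letters, not of binding. Stretches of 30 bases around the E-box are shown for Stag3, Brdt and Ddx4, which had the highest levels per length, as the mean without Bahd1-KO replicate 3, among the genes with a window (Tex15 had none), for Taf7l, which had an unadjusted p under 0.05, and for 2 genes at or near silence, with the E-box in capitals and each read 5′ to 3′ on the strand of its gene. All lie upstream of the RefSeq start, and those of Stag3 and Ddx4 lie inside the GENCODE gene, which begins further upstream.
Stag3, chr5:138280327-138280356, forward strand: cgcgctggagccCACGTGacaggactgcac
Brdt, chr5:107331104-107331133, forward strand: cgcaggcacagtCACGTGgcagaccctggc
Ddx4, chr13:112652322-112652351, reverse strand: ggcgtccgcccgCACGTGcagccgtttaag
Taf7l, chrX:134476522-134476551, reverse strand: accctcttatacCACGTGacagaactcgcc
Sycp1, chr3:102936177-102936206, reverse strand: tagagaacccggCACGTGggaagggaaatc
Hormad1, chr3:95559608-95559637, forward strand: caaagggtgcgcCACGTGccagtgacagtt
The same 6 letters thus stood before genes read in every brain and before a gene with no count. Over the 5 embryos, the median level was 0.0817 reads per kilobase per 1e6 reads in the 15 genes with the E-box, of which 2 were under 0.1 CPM in all 6 embryos, and 0.128 in the 14 without it, of which 4 were.

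Among the genes of the synaptonemal complex and the chromosome axis, Syce1 had the lower level in Bahd1-KO. Syce1 (ENSMUSG00000025480, chromosome 7, 140777229 to 140787852, reverse strand, GRCm38), a central element protein, had 6, 9 and 0 counts across Bahd1-KO, against 14, 23 and 29 across Bahd1-WT. The genotypes did not overlap, as for 2.24% of all genes in this direction. The log2 fold change was -1.74 (SE 0.949, unadjusted p 0.108, edgeR), and -1.21 without Bahd1-KO replicate 3 (SE 0.489, unadjusted p 0.0388). Hormad2, a further axis protein, had 4, 4 and 2 counts against 3, 1 and 2, and its scaled levels of 0.0371 to 0.0611 CPM lay above the 0.0113 to 0.0313 CPM of Bahd1-WT, a log2 fold change of 1.16 and of 1.28 without Bahd1-KO replicate 3. Over total counts its genotypes overlapped, as Bahd1-KO replicate 3 (2 of 78941526 counts, a total that was 53.5% protein-coding) lay below Bahd1-WT replicate 1 (3 of 91782802).

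Sycp1, the transverse filament protein, was read almost entirely in 1 embryo. It had 91 counts in Bahd1-KO replicate 3 and 0 in the other Bahd1-KO embryos, against 9, 1 and 0 in Bahd1-WT. In the other 5 libraries it thus stayed under 0.1 CPM. The protein-coding genes beside it went opposite ways in that library. Nr1h5, a nuclear receptor gene 3557 bases away on the same strand, had 2 counts in that library against 13 to 20, and Tspan2, 16985 bases away on the opposite strand, had 6409 against 1761 to 3087. Sycp2 and Sycp3, proteins of the lateral element, overlapped between genotypes, with log2 fold changes of 0.32 and 0.42, and of 0.49 and 0.53 without Bahd1-KO replicate 3. Sycp2 ran from 0.624 to 2.18 CPM over the 6 embryos. Sycp3 ran from 0.158 to 0.488 CPM, and 660 of its exon bases lie opposite exons of Chpt1 on the other strand.

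Of the 3 subunits of meiotic cohesin, Stag3 gave the highest level per length of all 34 genes over the 5 embryos other than Bahd1-KO replicate 3. Stag3 (ENSMUSG00000036928, chromosome 5, 138280240 to 138312393, forward strand) had 824, 857 and 100 counts across Bahd1-KO, against 886, 884 and 753 across Bahd1-WT. As a level this was 12.6, 10.1 and 1.85 CPM against 9.25, 10.03 and 7.46 CPM, so that Bahd1-KO replicate 3 alone was low. The log2 fold change was -0.12 (SE 0.634, unadjusted p 0.854, edgeR) and turned to 0.33 without that embryo (SE 0.254, unadjusted p 0.227), where the genotypes no longer overlapped, as for 6.33% of all genes in this direction. Gpc2, which starts 234 bases away on the opposite strand and encodes a glypican of developing neurons, had 146 counts in Bahd1-KO replicate 3 against 2281 to 4221. Rad21l, the kleisin subunit, had 66, 57 and 36 counts across Bahd1-KO, against 62, 38 and 30 across Bahd1-WT. Its scaled levels did not overlap, at 0.667 to 1.01 CPM against 0.297 to 0.648, with a log2 fold change of 0.77 (SE 0.487, unadjusted p 0.156) and of 0.85 without Bahd1-KO replicate 3 (unadjusted p 0.0697). Over total counts the genotypes overlapped. Bahd1-KO replicate 3, with 36 of 78941526 counts (a total that was 53.5% protein-coding), then lay below Bahd1-WT replicate 2, with 38 of 81568010. Smc1b, the meiotic SMC subunit, had 67, 44 and 66 against 52, 37 and 31 counts. Its levels overlapped through Bahd1-KO replicate 2, at 0.521 to 1.22 against 0.307 to 0.543 CPM, with a log2 fold change of 1.12 and of 0.84 without Bahd1-KO replicate 3.

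The genes of meiotic entry and recombination included Meioc, with the smallest p-value of the list in the edgeR fit of all embryos. This gene (ENSMUSG00000051455, chromosome 11, 102663716 to 102682237, forward strand), which keeps germ cells in the meiotic programme, had 9, 19 and 35 counts across Bahd1-KO, against 4, 5 and 6 across Bahd1-WT. Each Bahd1-KO embryo lay above each Bahd1-WT embryo, at 0.137, 0.225 and 0.649 CPM against 0.0418, 0.0567 and 0.0594 CPM. The log2 fold change was 2.63 (SE 0.747, unadjusted p 0.00919, adjusted p 0.696, edgeR), with adjusted p-values of 0.235 to 1.00 over the alternatives. Without Bahd1-KO replicate 3 it was 1.76 (unadjusted p 0.00802) and without Bahd1-KO replicate 2 it was 2.82. Taf7l had the smaller p-value without Bahd1-KO replicate 3 and with voom. Non-overlap in the higher direction was seen for 5 of the 29 genes (17.2%), Meioc, Taf7l, Dmc1, Rad21l and Hormad2, against 4.47% of all genes. Taf7l and Hormad2 reached the count minimum only with the Bahd1-KO counts added, and Rad21l and Hormad2 overlapped when levels were taken over total counts. Those totals were 53.5% protein-coding in Bahd1-KO replicate 3, against 97.8% to 98.4% in the other libraries.

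Dmc1, the recombinase that pairs broken meiotic DNA with its homologue, had far more counts. Dmc1 (ENSMUSG00000022429, chromosome 15, 79561497 to 79605109, reverse strand) had 174, 165 and 256 counts across Bahd1-KO, against 161, 119 and 136 across Bahd1-WT, or 2.66, 1.95 and 4.74 against 1.68, 1.35 and 1.35 CPM. The genotypes did not overlap, and Bahd1-KO replicate 3 was the highest. The log2 fold change was 1.09 (SE 0.447, unadjusted p 0.0435, edgeR) and 0.64 without that embryo (SE 0.284, unadjusted p 0.0553). Tex15, a factor of meiotic repair and transposon silencing, had 17.7, 10.1 and 24.7 CPM across Bahd1-KO, against 15.6, 9.56 and 6.30 CPM across Bahd1-WT. These values overlapped, with a log2 fold change of 0.74 (SE 0.463, unadjusted p 0.155) and of 0.38 without Bahd1-KO replicate 3. Spo11, the enzyme that makes the meiotic breaks, had 64, 66 and 8 counts against 90, 84 and 87, and Bahd1-KO replicate 3 lay at 0.148 CPM against 0.782 to 0.977 in the other libraries. Its log2 fold change of -0.52 moved to -0.08 without that embryo. Tex11, an X-linked meiotic gene, had 14, 7 and 16 against 6, 5 and 10 counts, and its levels overlapped, with a log2 fold change of 1.41 and of 0.95 without Bahd1-KO replicate 3.

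**Figure D3:**
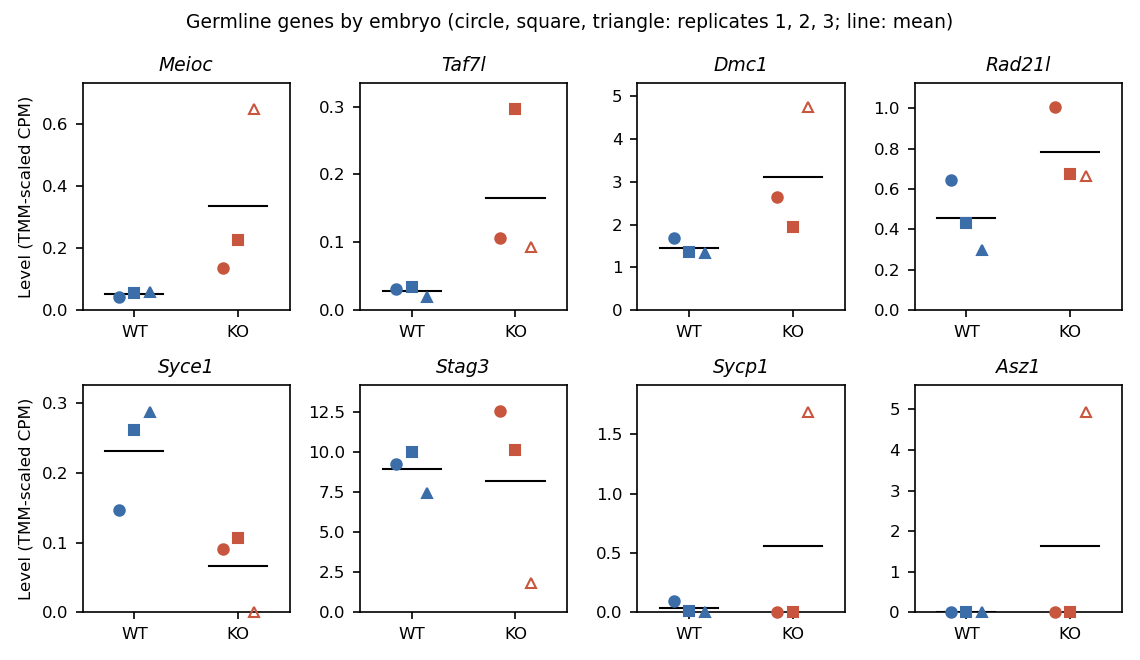
Level of 8 germline genes in each library (vertical axis from 0, TMM-scaled CPM), with the mean of each genotype as a line and replicates 1, 2 and 3 as circle, square and triangle. Meioc, Taf7l, Dmc1 and Rad21l do not overlap between genotypes with Bahd1-KO higher, Syce1 does not overlap with Bahd1-KO lower, and Stag3, Sycp1 and Asz1 differ mainly in Bahd1-KO replicate 3, drawn as an open triangle.

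The 11 genes of the piRNA pathway and germ granules gave no common direction, with 5 above 0 and 6 below and a median log2 fold change of -0.05. Without Bahd1-KO replicate 3, 5 of 9 lay above 0 with a median of 0.17. Ddx4, the VASA helicase of germ granules, had 3.85, 2.12 and 1.15 CPM across Bahd1-KO, against 2.66, 2.43 and 2.30 CPM across Bahd1-WT. The Bahd1-WT embryos lay inside the range of Bahd1-KO, and the log2 fold change of -0.05 (SE 0.494, unadjusted p 0.917, edgeR) turned to 0.25 without Bahd1-KO replicate 3. Tdrd1, a Tudor scaffold that binds PIWI proteins, had 3.33, 1.93 and 2.06 against 3.00, 3.30 and 2.32 CPM, a log2 fold change of -0.24 (SE 0.391, unadjusted p 0.565) and of -0.15 without Bahd1-KO replicate 3. The Tudor genes Tdrd5, Tdrd6 and Tdrd9 overlapped, with log2 fold changes of 0.17, -0.43 and -0.22, and of -0.05, -0.03 and 0.17 without that embryo. They ran from 0.941 to 1.95, from 0.482 to 2.42 and from 0.130 to 0.504 CPM over the 6 libraries, and Tdrd6 and Tdrd9 were lowest in Bahd1-KO replicate 3.

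The genes of the PIWI proteins themselves were read at low levels. Piwil1 had 28, 66 and 2 counts across Bahd1-KO, against 51, 48 and 39 across Bahd1-WT, and Piwil2 had 10, 17 and 12 against 24, 16 and 20. Neither separated the genotypes, with log2 fold changes of -0.22 and -0.13, and of 0.31 and -0.25 without Bahd1-KO replicate 3. Mael, a piRNA factor with an HMG domain, had 15 of its 29 counts in Bahd1-KO replicate 2, the library with placenta markers. The other counts of Mael were 1 and 0 for Bahd1-KO, and 3, 3 and 7 for Bahd1-WT. Stk31, a Tudor domain kinase of germ cells, had 7, 7 and 0 against 7, 3 and 3 counts. Mov10l1, the helicase that starts piRNA processing, had 7 of its 12 counts in Bahd1-KO replicate 3 and at most 2 in any other library.

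Asz1, a germ granule protein at mitochondria, was read in a single embryo. Asz1 (ENSMUSG00000010796, chromosome 6, 18050964 to 18109061, reverse strand) had 266 counts in Bahd1-KO replicate 3, or 4.93 CPM, and 0 in each of the other 5 libraries. That library held the majority of a gene's counts for 9.94% of all genes. Its neighbours on chromosome 6 were high there too. Wnt2, a signalling ligand whose gene lies 20.4 kb away, had 1379 counts in Bahd1-KO replicate 3 against 5 to 22, and Cftr, a chloride channel of epithelia whose gene lies 61.6 kb away, had 1494 against 117 to 347. The unadjusted p of Asz1 (0.0494, edgeR) thus rests on the library with lung epithelium markers at 1693 CPM, against 0.290 to 11.6 CPM elsewhere, and their part in its value was not tested.

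Among the germ cell and spermatid factors, Taf7l was the one whose genotypes did not overlap with all embryos in the comparison. Taf7l (ENSMUSG00000009596, chromosome X, 134460118 to 134476490, reverse strand), an X-linked TFIID subunit of spermatogenic cells, had 7, 25 and 5 counts across Bahd1-KO, against 3, 3 and 2 across Bahd1-WT. At 0.0927 to 0.296 CPM all Bahd1-KO embryos lay above the Bahd1-WT embryos at 0.0198 to 0.0340, and Bahd1-KO replicate 2 held 55.6% of the counts. The log2 fold change was 2.501 (SE 0.734, unadjusted p 0.0108, adjusted p 0.696, edgeR), with adjusted p-values of 0.244 to 1.00 over the alternatives. It was 2.80 without Bahd1-KO replicate 3 (unadjusted p 0.00251) and 1.74 without Bahd1-KO replicate 2 (unadjusted p 0.0477). Bahd1-KO replicate 2 is also the library with placenta trophoblast markers at 5.62 CPM and lung epithelium markers at 11.6 CPM, and their part in the value of Taf7l was not tested.

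Brdt, the testis member of the BET bromodomain family, was read at a like level in every embryo. It had 8.58, 8.05 and 7.30 CPM across Bahd1-KO, against 7.97, 6.65 and 6.82 CPM across Bahd1-WT. The groups overlapped, with a log2 fold change of 0.16 (SE 0.284, unadjusted p 0.592, edgeR) that turned to -0.0036 when libraries were scaled by total counts and was 0.20 without Bahd1-KO replicate 3. Dazl, an RNA-binding protein that sets germ cell fate, had 90, 40 and 49 counts across Bahd1-KO, against 103, 55 and 44 across Bahd1-WT, a log2 fold change of 0.37 and of 0.34 without that embryo. Tex14, a protein of the bridges between germ cells, had 56, 75 and 34 against 66, 46 and 40 counts, and its levels overlapped only through Bahd1-KO replicate 3 (log2 fold change 0.56, and 0.69 without it). Slc25a31, the ADP/ATP carrier of spermatids, had 16, 13 and 2 against 18, 11 and 16 counts (log2 fold change -0.10, and 0.31 without Bahd1-KO replicate 3).

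**Figure D4:**
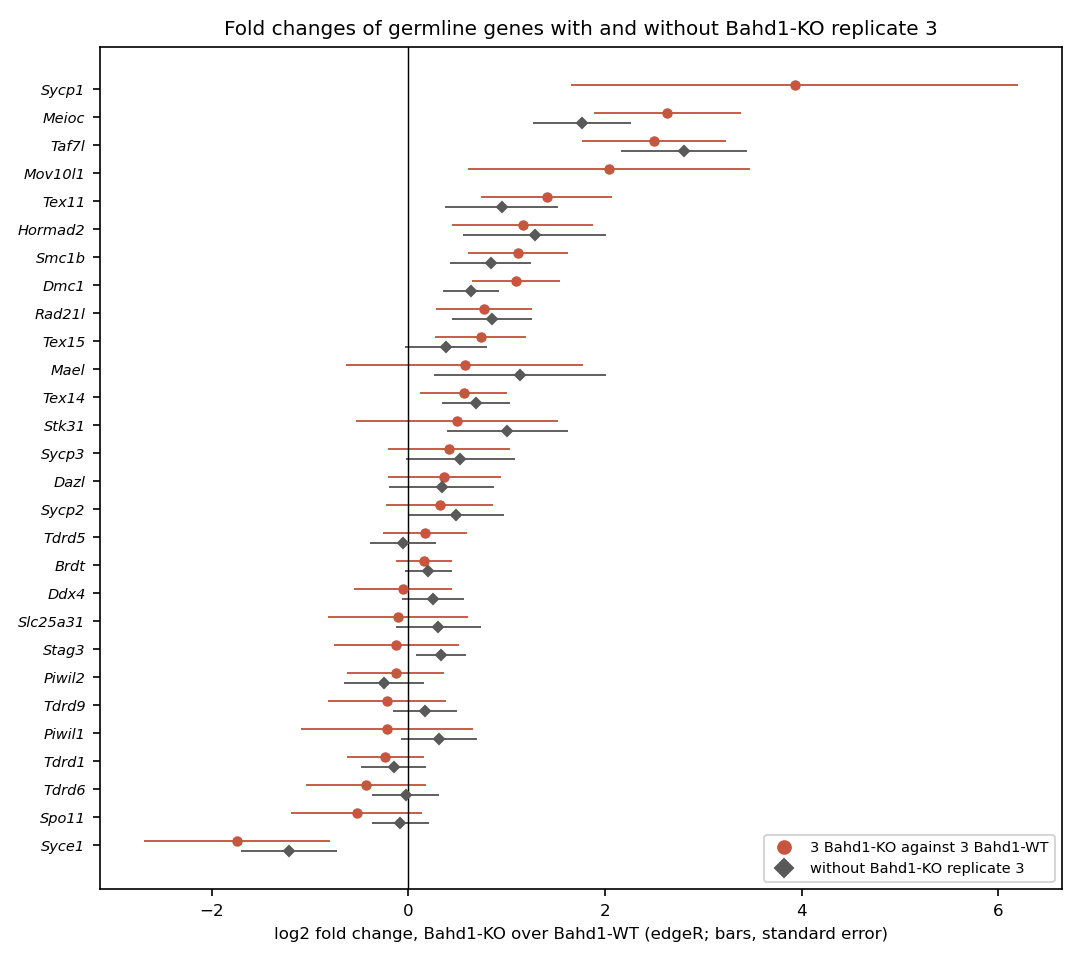
Log2 fold change of germline genes between Bahd1-KO and Bahd1-WT (horizontal axis, bars are standard errors from edgeR), with all embryos in red and without Bahd1-KO replicate 3 in grey. Asz1 is left out because Bahd1-WT had no count, and no grey point is drawn for Sycp1 and Mov10l1. Meioc and Taf7l stay to the right and Syce1 to the left in both fits, while Stag3 and Ddx4 cross 0.

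Without Bahd1-KO replicate 3, the levels of 9 of 27 genes lay wholly above Bahd1-WT (33.3%, against 6.33% of all genes). These were Stag3, Brdt, Dmc1, Rad21l, Tex14, Taf7l, Meioc, Stk31 and Hormad2. Taf7l and Hormad2 again reached the count minimum only with the Bahd1-KO counts added. Wholly below was Syce1 alone, against 4.35% of all genes. With 2 embryos against 3, this count rests on Bahd1-KO replicates 1 and 2. Untailed RNAs (4 genes) summed to 5390 and 5571 CPM in these embryos, against 3339, 2309 and 3439 CPM in Bahd1-WT, with 4 of 4 log2 fold changes above 0 and 2 at an unadjusted p under 0.05 (edgeR). All 7 lung epithelium markers also lay above 0 in this fit, 5 of them at an unadjusted p under 0.05. So did the 5 placenta trophoblast markers tested, 4 of them at such a p, and the 6 blood markers, 2 of them at such a p. The 8 dividing progenitor markers lay above 0 with 0 at such a p, and the 8 skeletal muscle markers lay below 0. The part of any of these lists in the count was not tested. Gonad somatic cell markers (8 genes, 4 of them under 0.1 CPM in every library, with Insl3, a Leydig cell hormone, at 0 counts) summed to 2.52 to 10.1 CPM in Bahd1-KO and 6.73 to 14.2 CPM in Bahd1-WT.

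Further genes of the same pathways were read in the same fit. Of 26 other meiosis genes, 17 were tested, 13 of them above 0 and 4 below, with 0 called and a median log2 fold change of 0.22 (0.28 without Bahd1-KO replicate 3). Mnd1, a partner of DMC1 in strand exchange, had 36, 51 and 93 counts across Bahd1-KO, against 33, 34 and 33 across Bahd1-WT, a log2 fold change of 1.44 (SE 0.580, unadjusted p 0.0414, edgeR) and of 0.70 without Bahd1-KO replicate 3 (unadjusted p 0.0592). Stra8, the inducer of meiosis, had 1 count in all. Of 10 other piRNA pathway genes, 3 lay above 0 and 7 below, with 0 called, and 5 on each side without that embryo. Of 16 other germ cell genes, 8 were tested, 3 above 0 and 5 below, with 0 called, and 4 on each side without that embryo. Dppa3, Dppa4, Rhox13 and Tex13b had 0 counts in all 6 libraries.

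The chromatin genes known to silence germline genes were also compared. All 26 silencers were tested, among them Mga, Max, Pcgf6, E2f6, Setdb1, Ehmt2 and Dnmt1, and 9 lay above 0 and 17 below, with 0 called and a median log2 fold change of -0.16. By edgeR 0 reached an unadjusted p under 0.05, and by DESeq2 1 did, the maintenance DNA methyltransferase Dnmt1, with a log2 fold change of -0.66 (unadjusted p 0.0498). Their summed level in Bahd1-KO replicate 3 was 71.1% of the mean of the other 5 libraries. Without that embryo 10 lay above 0 and 16 below, with a median of -0.09.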

How the data were processed

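The authors deposited 1 table of raw read counts per gene, with 1 column per embryo. Per the study's methods, poly(A) RNA was made into stranded TruSeq libraries and read single-end. The submitters' processing notes name cutadapt 1.11, STAR 2.5.0a and featureCounts 1.4.6-p3 on GRCm38. The supplementary methods also name TopHat2, and which aligner made this table is not stated. Reads of near-identical copies could be lost or split.

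Groups came from sample titles. The labels call the embryos biological replicates. Genes with at least 10 counts in all were tested two-sided with edgeR 4.0.16 (R 4.3.3; TMM factors, genotype as the single term, Benjamini-Hochberg over all genes tested, threshold 0.05). The test was run on simulated data first. Levels are CPM over TMM-scaled libraries, divided by exon length (GENCODE M21) where given per length. With 61724000 to 91782802 counts per library, 3 counts came to 0.0297 to 0.0556 CPM. Intervals of this kind cover counting error only. Alternatives were DESeq2 1.42.0, limma 3.58.1 voom, other filters, scalings and blocks, and each embryo left out.

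The members and lists were chosen with earlier results of these data known. Full statistics were given to members with an unadjusted p under 0.05, to those that did not overlap between genotypes with at least 20 counts, and to the 8 highest per length. Members with at least 20 counts of which 1 embryo held the majority were given with all counts. Other genes were named after their values were seen. Marker lists not named elsewhere, in CPM of the lowest and highest library, were dividing progenitors (533 to 1132), choroid plexus (162 to 797), multiciliated cells (82.7 to 131), blood (108 to 480) and skeletal muscle (4.38 to 93.2). Untailed RNAs (4 genes) summed to 656990 CPM in Bahd1-KO replicate 3, 164-fold the mean of the others.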

Additional observations from a re-analysis of the deposited data

How the results depend on the processing

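No germline gene, other germline gene or silencer was called in any of the 18 alternatives. All genes called numbered 1 in the edgeR test, 8 with DESeq2, 6 with voom and quality weights, 6 with the edgeR likelihood ratio test, 0 with ribosomal, mitochondrial and small RNA genes left out (1055 at an unadjusted p under 0.05, edgeR), 11 with DESeq2 without Bahd1-KO replicate 3, and 0 to 4 with 1 embryo left out (edgeR, 154 to 4878 at an unadjusted p under 0.05). Germline genes at an unadjusted p under 0.05 numbered 4, with voom 7, and 2 to 6 with 1 embryo left out, 2 without any 1 of the Bahd1-WT embryos and 6 without Bahd1-KO replicate 2. The median log2 fold change of the germline genes was 0.20 with filterByExpr and 0.17 to 0.75 with 1 embryo left out (0.18 without Bahd1-KO replicate 1, 0.75 without Bahd1-WT replicate 1, 0.17 without Bahd1-WT replicate 3). Another scaling moved the median of all genes to -0.11 (total counts) or 0.17 (upper quartile), with germline medians of 0.28 and 0.51. The difference in summed level was 11.8 CPM, 5.46 over total counts, 16.9 over protein-coding counts and 10.5 without Bahd1-KO replicate 3. Under 0.5 CPM in every embryo lay 15 germline genes, against 6 under 0.1 CPM, and 6 to 9 with 1 embryo left out.

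Stag3 turned to 0.20 with voom, 0.33 without Bahd1-KO replicate 3 and 0.34 in DESeq2 without it. Ddx4 turned to 0.052 with upper-quartile factors, 0.25 with voom, 0.25 without Bahd1-KO replicate 3 and 0.26 in DESeq2 without it, and Brdt to -0.0036 with total counts. With 1 embryo left out, Stag3 ranged from -0.57 to 0.33 and Ddx4 from -0.59 to 0.25. Bahd1 stayed between -8.97 and -8.01 and missed the adjusted threshold in 7 alternatives, those with 1 embryo other than Bahd1-KO replicate 3 left out, with the replicate block (adjusted p 0.229, edgeR; range over alternatives 8.2e-50 to 0.685) and with ribosomal, mitochondrial and small RNA genes left out. The cause was not tested.

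Deviations of embryos with the same replicate number correlated at 0.125, 0.176 and -0.0879, and those with different numbers at -0.362 to 0.250. With 3 embryos per genotype, these values cannot show whether the numbers pair embryos. With the replicate block no gene passed, or 0 (517 at an unadjusted p under 0.05, edgeR), 3 germline genes had an unadjusted p under 0.05 and their median was 0.34. With the replicate block and without Bahd1-KO replicate 3, 16 genes passed, the median was 0.22, Stag3 was at 0.21 and Ddx4 at 0.16.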
